A study of Rattus norvegicus with 24 samples.

Results

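The genes described here are Pnisr, Rsrp1, Luc7l3, Luc7l2, Ogt, Clk1, Clk4, Ddx5, Srrm2 and Son, 10 genes of the splicing machinery and its regulators, in the striatum and the whisker follicles of methamphetamine (MA) and saline (SA) self-administered rats. They were chosen by name, on their differences between MA and SA in these same libraries, so every MA against SA value of theirs is given as a description, without a test. All 10 were found among the 17711 rows of the expression table, and all 10 passed the minimum used here, a mean of 1 FPKM (read fragments scaled to transcript length and to the mapped total of the library), in each tissue. The row of Ddx5 is joined with that of the microRNA Mir3064. Nuclear retention, for which several of these transcripts are known, is not measured by an FPKM value, which does not separate spliced transcripts from those that keep an intron.

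Male Sprague-Dawley rats pressed a lever for intravenous infusions in daily sessions of 2 h over 16 days. The 6 MA rats received 0.05 mg/kg of MA per infusion, and the 6 SA rats, with the same training and surgery, received saline alone, a dose of 0. Poly(A) RNA of the bulk striatum and of whisker follicles of each rat was sequenced, in 24 libraries with 6 per group. Only rats that had learned to press the lever for food entered the experiment, and their ages were not stated.

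Nuclear speckles are bodies within the nucleus that store splicing factors, many of which carry stretches of arginine and serine (RS domains). SON and SRRM2 are the large proteins that hold speckles together, and the CLK kinases phosphorylate the RS domains of SR proteins and so release them from speckles. LUC7-like proteins belong to the U1 particle that recognises 5′ splice sites, PNISR and RSRP1 are RS-rich proteins whose functions are less well known, and DDX5 is an RNA helicase that acts in splicing and transcription. OGT is the enzyme that attaches O-linked N-acetylglucosamine (O-GlcNAc) to nuclear and cytoplasmic proteins. Transcripts of OGT and of CLK1 and CLK4 are textbook cases of detained introns: part of the polyadenylated RNA keeps an intron, stays in the nucleus and can be spliced later.

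Promoter sequences were at hand for 8 of the 10 genes, from RefSeq on the GRCr8 build of the rat genome. Rsrp1 and Srrm2 had no entry. The letters CCATNTT, the core of the sequence known to bind the transcription factor YY1, were searched on both strands from 250 bases before to 50 bases after each start. These letters were chosen after the sequences had been read. They stood in 5 of the 8 promoters (those of Pnisr, Luc7l3, Clk1, Clk4 and Son), against 19.8% of 27457 rat genes with a promoter and 18.5% of the 6427 of these measured here. Within 50 bases of the start on either side they stood in 4 of the 8, against 10.5% of the measured genes. These 4 are shown because their matches lie within 50 bases of the start, with Ogt as an example without a match. Each run spans the 70 bases before the start and the 50 that follow, 5′ to 3′ on the gene's own strand, with the match in capitals.
Pnisr, chr5:40192665-40192784, plus strand: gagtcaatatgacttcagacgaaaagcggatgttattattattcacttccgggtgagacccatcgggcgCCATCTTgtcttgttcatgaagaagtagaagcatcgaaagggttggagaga
Luc7l3, chr10:79773380-79773499, minus strand: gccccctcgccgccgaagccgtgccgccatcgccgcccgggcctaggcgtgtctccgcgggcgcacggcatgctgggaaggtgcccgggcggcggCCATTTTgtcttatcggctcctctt
Clk1, chr9:67453131-67453250, minus strand: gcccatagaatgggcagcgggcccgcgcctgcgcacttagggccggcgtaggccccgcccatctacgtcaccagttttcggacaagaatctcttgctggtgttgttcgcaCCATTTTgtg
Clk4, chr10:36025670-36025789, plus strand: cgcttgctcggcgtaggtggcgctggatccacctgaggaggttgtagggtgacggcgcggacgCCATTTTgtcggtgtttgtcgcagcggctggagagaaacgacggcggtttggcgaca
Ogt, chrX:70811265-70811384, plus strand: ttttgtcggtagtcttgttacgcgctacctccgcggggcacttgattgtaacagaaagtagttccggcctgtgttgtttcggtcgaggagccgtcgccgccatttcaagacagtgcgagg

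With the start base counted as 0, the printed match began at position -1 in Pnisr, -7 in Clk4, 25 in Luc7l3 and 40 in Clk1. A second Clk4 start in the table, at chr10:36024388-36024507, held a match on the other strand from position -8. The match of Son lay farther away, at position -193. The promoters of Luc7l2, Ogt and Ddx5 held none. The cyclic AMP response element TGACGTCA, searched the same way and counted separately, stood in 1 of the 8 (Clk4, outside the printed window), against 2.00% of all rat genes with a promoter and 3.56% of those measured here. A match is a run of letters and not a measured binding site.

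FPKM values are scaled to transcript length, so levels can be set side by side between genes. In the striatum of SA rats Ddx5 was the most abundant of the 10 at 208 ± 20.6 FPKM (mean ± SD, n = 6), followed by Rsrp1 at 111 ± 23.7 FPKM. The ranges of these genes did not overlap, and each SA library of Rsrp1 stood above every library of the other 8 genes. Srrm2 (47.5 ± 3.27 FPKM), Ogt (43.0 ± 5.93) and Clk1 (41.9 ± 14.6) formed a middle group whose ranges overlapped. Pnisr (22.1 ± 4.26), Luc7l3 (21.5 ± 5.16), Luc7l2 (20.7 ± 3.02), Son (19.0 ± 3.41) and Clk4 (13.1 ± 3.80) lay below with overlapping ranges.

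Ddx5 again led in the whisker follicle of SA rats, at 144 ± 29.5 FPKM. Rsrp1 (44.4 ± 6.24 FPKM) and Clk1 (43.0 ± 5.13) came next and overlapped each other. Ogt had moved from the fourth place of the striatal order to the eighth, at 7.77 ± 1.18 FPKM, and Pnisr was the lowest of the 10 at 5.70 ± 2.08 FPKM. The levels of Srrm2, Luc7l2, Luc7l3, Clk4 and Son lay between those of Clk1 and Pnisr, from 18.1 ± 4.03 FPKM for Srrm2 to 6.93 ± 1.68 FPKM for Son.

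**Figure D1:**
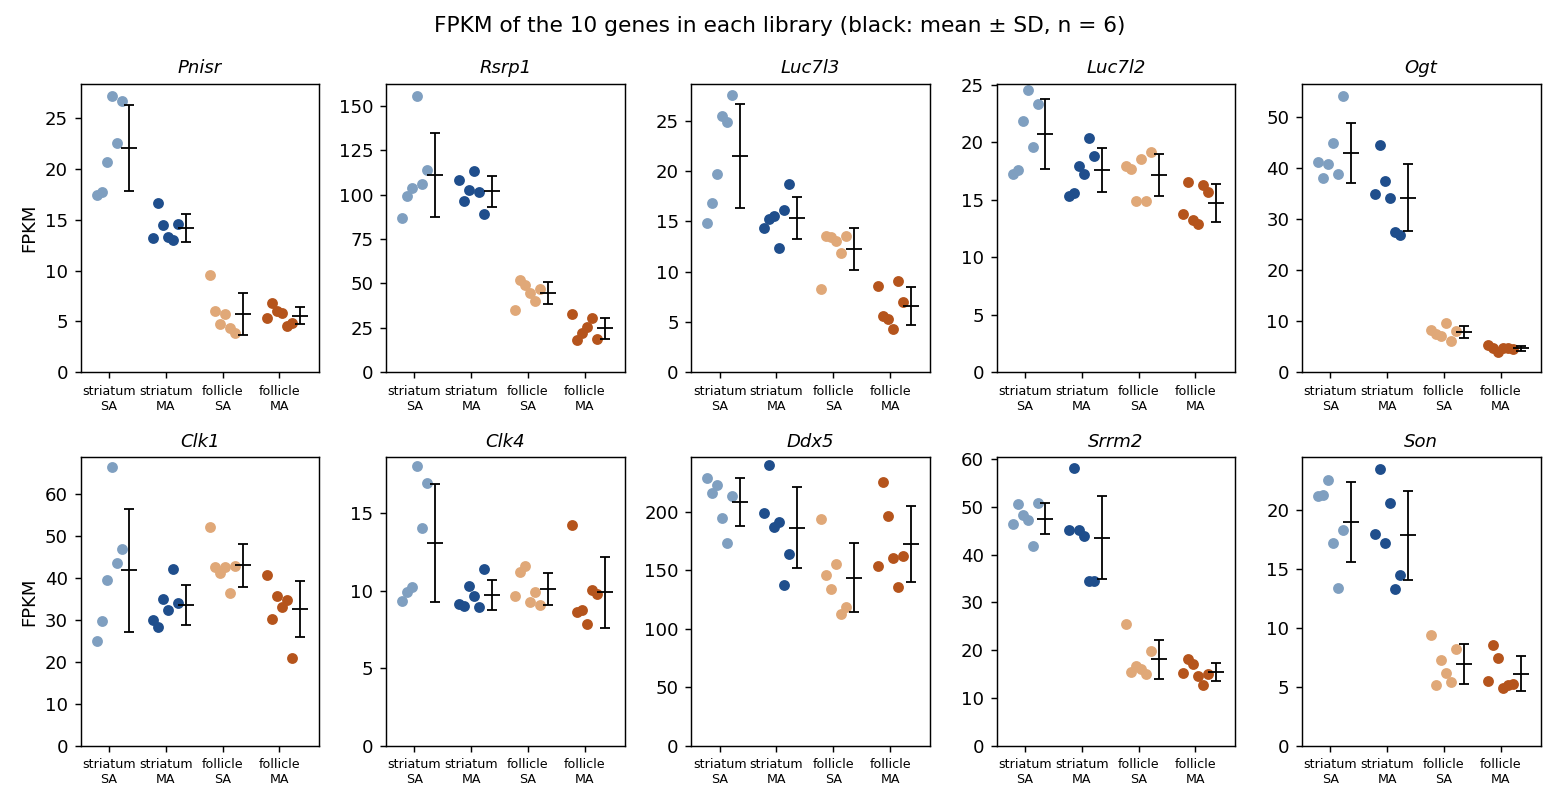
FPKM of each of the 10 genes in every library (points), by tissue and treatment, with the mean ± SD of the 6 libraries of a group in black and all axes starting at 0. The MA points of Pnisr in the striatum and of Rsrp1 and Ogt in the whisker follicle all lie below the SA points, while those of Ddx5, Srrm2 and Son overlap in both tissues.

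The tissue contrast played no part in choosing the genes, so it was tested, with limma over all genes in the 12 SA libraries. Of the 10 genes, 6 were called higher in the striatum (adjusted p under 0.05 with a change of 1.5-fold or more), against 42.5% of the 10952 genes tested, and 0 were higher in the whisker follicle, against 32% of genes. The median gene was 0.24 higher in the striatum on the log2(FPKM + 1) scale on which the differences that follow are given. Ogt showed the widest gap, with a ratio of mean FPKM of 5.54 (log2 difference 2.33 ± 0.12 SE, limma adjusted p = 1.88e-10). Pnisr followed with a ratio of 3.87 (log2 difference 1.81 ± 0.19 SE, limma adjusted p = 4.94e-07).

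The scaffold genes of the speckle were called as well. Son was 2.74 times as high in the striatum by mean FPKM (log2 difference 1.34 ± 0.16 SE, limma adjusted p = 2.32e-06) and Srrm2 2.63 times (1.37 ± 0.12, limma adjusted p = 1.47e-07). Rsrp1, the RS-rich gene, was 2.50 times as high (1.29 ± 0.14, limma adjusted p = 1.14e-06), and Luc7l3 1.76 times (0.75 ± 0.17, limma adjusted p = 0.000818). For Luc7l3 the fold was no longer past 1.5 when libraries were shifted to a common median (log2 difference 0.33) or weighted (0.56).

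The members that were not called include both kinases. Clk1 differed by -0.10 ± 0.19 (striatum minus whisker follicle, limma adjusted p = 0.644) and Clk4 by 0.30 ± 0.16 (limma adjusted p = 0.0936). Luc7l2, the paralog of Luc7l3, differed by 0.25 ± 0.11 (limma adjusted p = 0.0516). Ddx5 differed by 0.55 ± 0.14 (limma adjusted p = 0.00210), which is below the 1.5-fold limit. It passed the limit with quantile normalization (1.47), with library weights (0.67), without follicle SA library 0 (0.64) and without striatum SA library 4 (0.60). With a library left out its difference went as low as 0.49, and a common median was not among the settings in which it passed.

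The same 6 genes were called in the 12 MA libraries, where 41.4% of 10953 genes were higher in the striatum. There the log2 differences were 2.63 ± 0.12 for Ogt, 2.04 ± 0.14 for Rsrp1 and 1.22 ± 0.10 for Pnisr, while Ddx5 differed by only 0.11 ± 0.15 (limma adjusted p = 0.478). The tissues came from the same rats, which this unpaired comparison could not use. Whether fewer expressing cells or less RNA per cell lies behind a lower level cannot be told apart in bulk tissue.

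Paralogs and partners of the members did not follow a common order. Clk3, a sister kinase of Clk1 and Clk4, went the other way, with 28.5 ± 3.10 FPKM in the striatum and 360 ± 107 FPKM in the whisker follicle of SA rats (log2 difference -3.56 ± 0.19 SE, limma adjusted p = 3.33e-10). Clk2 stood at 10.5 FPKM in the striatum and 10.8 FPKM in the follicle (log2 difference -0.04 ± 0.12 SE, limma adjusted p = 0.764). Mgea5, the hydrolase that removes the O-GlcNAc that OGT adds, was higher in the striatum like Ogt (35.9 ± 8.82 against 4.23 ± 4.23 FPKM, log2 difference 3.05 ± 0.35 SE). Ddx17, the closest relative of Ddx5, was higher there too (log2 difference 1.65 ± 0.28 SE), as was Srrm1 (0.61 ± 0.11), whereas Luc7l was not called (0.21 ± 0.11). In the MA libraries Srrm1 differed by 0.43 ± 0.10 and was not called.

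**Figure D2:**
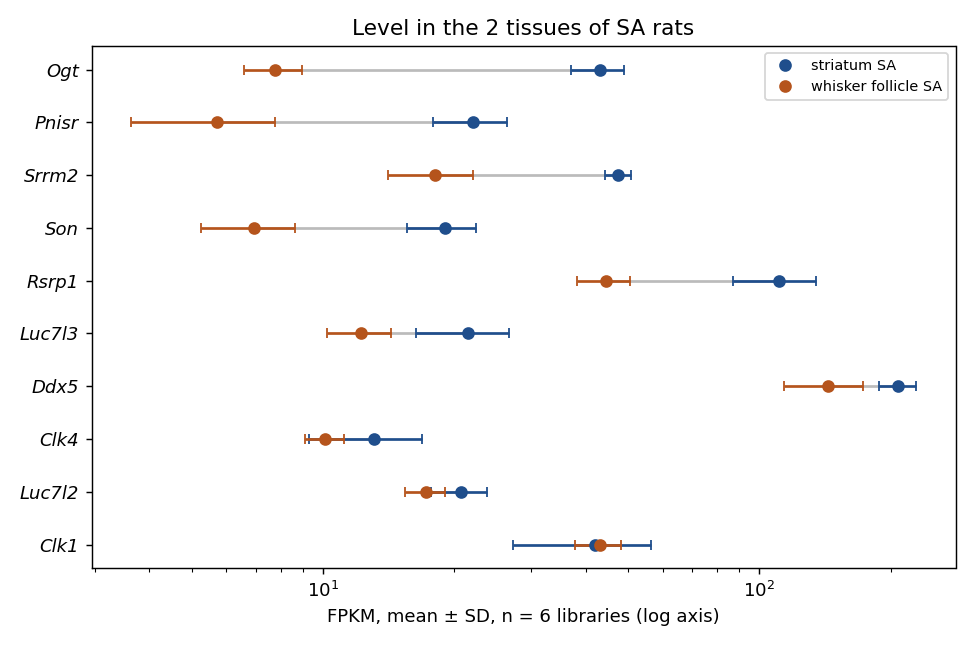
Mean FPKM ± SD (n = 6 SA libraries) of each gene in the striatum (blue) and the whisker follicle (orange) on a log axis, with genes ordered by the size of the gap. Ogt and Pnisr are farthest apart, and the means of Clk1 lie almost on each other.

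In the striatum, Pnisr was the member in which MA and SA rats were most clearly apart. SA libraries ran from 17.5 to 27.3 FPKM (median 21.6) and MA libraries from 13.0 to 16.7 FPKM (median 13.9). Every MA library lay below every SA library, and the closest were MA library 1 at 16.7 and SA library 0 at 17.5 FPKM. The change of the mean from SA to MA was -35.6%, a log2 difference of -0.59 ± 0.12 (SE), and only 0.113% of the 10607 genes tested in the striatum had a lower difference. Pnisr was the only member whose groups did not overlap here, a pattern that 0.16% of all tested genes showed in this direction.

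The LUC7-like genes lay lower in the striatum of MA rats with some overlap. Luc7l3 ran from 14.8 to 27.5 FPKM in SA (median 22.3) and from 12.4 to 18.7 FPKM in MA (median 15.4). All 6 MA libraries were below the SA mean, and 2 of them below every SA library. The log2 difference of Luc7l3 was -0.44 ± 0.15 (SE), and that of Luc7l2 was -0.22 ± 0.10, with 17.3 to 24.5 FPKM in SA and 15.3 to 20.4 FPKM in MA.

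Ogt ran from 38.1 to 54.1 FPKM in SA (median 41.0) and from 26.9 to 44.5 FPKM in MA (median 34.5). Of the MA libraries 5 lay below every SA library, while MA library 1, at 44.5 FPKM, lay within the SA range. The mean of Ogt changed by -20.4% from SA to MA (log2 difference -0.33 ± 0.12 SE). Without MA library 1 the groups of Ogt therefore could not overlap, and the share of all genes without overlap in that setting is not given here.

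Both CLK kinases varied more, relative to their means, among SA rats than among MA rats. Pnisr, Rsrp1, Luc7l3 and Luc7l2 did so too, while Ogt, Ddx5, Srrm2 and Son varied more among MA rats. Clk4 ran from 9.36 to 18.1 FPKM in SA (median 12.1) and from 8.93 to 11.4 FPKM in MA (median 9.39), a log2 difference of -0.35 ± 0.15 (SE). Clk1 ran from 24.9 to 66.5 FPKM in SA (median 41.6) and from 28.2 to 42.1 FPKM in MA (median 33.2), a log2 difference of -0.25 ± 0.19 (SE). Single SA libraries moved this value, to -0.11 without SA library 3 and to -0.38 without SA library 0. No MA library of Clk1 was below all SA libraries, since SA library 0 held the lowest value of the 12. The coefficient of variation of Clk1 was 34.9% in SA and 14.4% in MA.

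The abundant and the scaffold genes differed least in the striatum. Rsrp1 ran from 86.6 to 156 FPKM in SA (median 105) and from 89.0 to 113 FPKM in MA (median 102), so that its MA libraries all lay within the SA range, and its log2 difference was -0.10 ± 0.12 (SE). Ddx5 (-0.17 ± 0.12), Srrm2 (-0.14 ± 0.12) and Son (-0.09 ± 0.15) had differences close to their errors. Without SA library 3 the difference of Rsrp1 was -0.00, and without MA library 4 those of Ddx5, Srrm2 and Son were -0.09, -0.08 and -0.02. In each of these 3 genes MA library 1 held the highest value of the 12 libraries.

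All 10 members had a lower mean log2 level in MA than in SA in the striatum, where 49.5% of all tested genes did, and their median difference was -0.24 against 0.00 for all genes. This describes genes that were picked on such differences. Of all 10607 genes, limma called 1 at the same limits of p and fold (0.00943%), and it was not a member but Pkp2, higher in MA, named here after its value was seen.

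**Figure D3:**
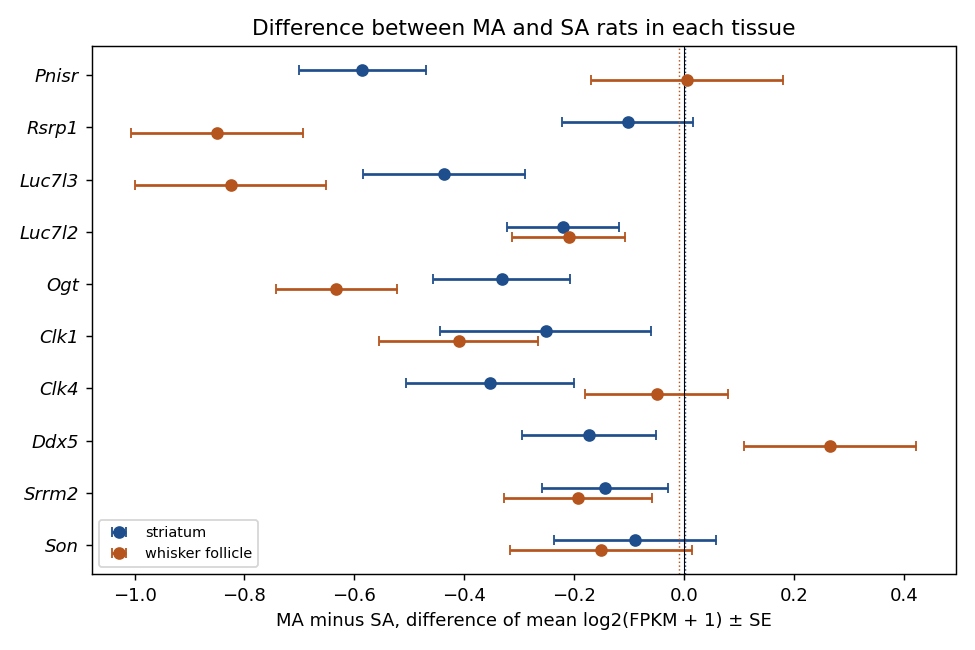
Difference between MA and SA rats for each gene (MA minus SA of mean log2(FPKM + 1) ± SE, n = 6 libraries per group) in the striatum (blue) and the whisker follicle (orange). Solid and dotted vertical lines mark 0 and the median of all genes tested in each tissue. In the striatum all 10 points lie below 0 with Pnisr lowest, and among the follicle points Rsrp1 and Luc7l3 are lowest and Ddx5 lies above 0.

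The member with the largest difference in the whisker follicle was not Pnisr but Rsrp1, while Luc7l3 came next after the leading gene in both tissues. Rsrp1 ran from 34.8 to 51.7 FPKM in SA (median 45.4) and from 18.3 to 32.9 FPKM in MA (median 23.6), and the groups did not overlap. The change of its mean was -44.7%, a log2 difference of -0.85 ± 0.16 (SE), which 0.602% of the 9138 genes tested in this tissue went below. In the striatum the same gene had differed by only -0.10.

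Ogt was the other gene without overlap in the whisker follicle. It ran from 6.13 to 9.55 FPKM in SA (median 7.79) and from 3.91 to 5.30 FPKM in MA (median 4.66), and the change of its mean was -40.4% (log2 difference -0.63 ± 0.11 SE). Among the 10 it had the second smallest spread within groups in this tissue, with 10.4% of tested genes below it. Of all tested genes, 0.285% showed every MA library below every SA library.

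Luc7l3 ran from 8.25 to 13.5 FPKM in SA (median 13.2) and from 4.24 to 9.02 FPKM in MA (median 6.23). The SA libraries other than library 0 lay between 11.8 and 13.5 FPKM, above all MA libraries, while SA library 0, at 8.25 FPKM, lay below MA libraries 0 and 4. The mean of Luc7l3 changed by -46.2% (log2 difference -0.83 ± 0.17 SE). The paralog Luc7l2 ran from 14.9 to 19.1 FPKM in SA and from 12.9 to 16.6 FPKM in MA, a log2 difference of -0.21 ± 0.10 (SE), close to its value in the striatum.

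The CLK kinases parted in this tissue. Clk1 ran from 36.6 to 52.3 FPKM in SA (median 42.6) and from 21.0 to 40.8 FPKM in MA (median 33.8), with 5 of 6 MA libraries below every SA library and a log2 difference of -0.41 ± 0.14 (SE). Clk4 ran from 9.08 to 11.6 FPKM in SA (median 9.78) and from 7.87 to 14.2 FPKM in MA (median 9.26), and the highest value of the 12 was that of MA library 0. Its log2 difference of -0.05 ± 0.13 (SE) was smaller than its error and was -0.15 without MA library 0.

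Pnisr, the member with the clearest difference in the striatum, was level here, with 3.80 to 9.59 FPKM in SA and 4.50 to 6.78 FPKM in MA (log2 difference 0.01 ± 0.18 SE). Ddx5 had a higher mean in MA, with overlapping groups, at 113 to 194 FPKM in SA (median 140) and 136 to 225 FPKM in MA (median 162), a log2 difference of 0.27 ± 0.16 (SE). Srrm2 (-0.19 ± 0.13) and Son (-0.15 ± 0.17) differed by about their error, and by -0.09 and -0.07 without SA library 0. That library held the highest SA value of Pnisr, Ddx5, Srrm2, Son and Clk1 and the lowest of Rsrp1 and Luc7l3.

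Of the 10 members, 8 had a lower mean log2 level in MA follicles, against 51.7% of tested genes, with a median of -0.20 against -0.01 for all genes. The exceptions were Pnisr and Ddx5. Limma called 0 genes of 9138 at these limits (0%), while 473 (5.18%) were lower and 480 (5.25%) higher in MA at an unadjusted p under 0.05.

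Across tissues 8 of the 10 were lower in MA in both, against 23.9% of the 8212 genes tested in both. Each member's values in the tissues can be set side by side. Luc7l3 (-0.44 in the striatum and -0.83 in the follicle) and Ogt (-0.33 and -0.63) lay well below 0 in each tissue. Pnisr (-0.59 and 0.01) and Clk4 (-0.35 and -0.05) had the larger difference in the striatum, and Rsrp1 (-0.10 and -0.85) had it in the follicle. Clk1 (-0.25 ± 0.19 and -0.41 ± 0.14 SE) was lower in each, without a clear order. Its striatal value was -0.38 without SA library 0, and its follicle value -0.29 without MA library 5. Luc7l2 (-0.22 and -0.21), Srrm2 (-0.14 and -0.19) and Son (-0.09 and -0.15) had like values in each, and Ddx5 (-0.17 and 0.27) had opposite signs. Whether the MA differences of a gene differed between tissues was not tested, since these contrasts chose the genes, and both tissues came from the same rats.

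Several libraries stood apart from their groups in ways that touch these values. The summed FPKM of the cytosolic ribosomal protein genes ran from 8724 to 10847 in striatum SA and from 8230 to 17980 in striatum MA, highest in MA library 4, and 62 of their 67 tested rows were higher in MA (median log2 difference 0.25). Erythrocyte markers (Hbb, Hba1, Hba2 and Alas2) summed to 339 to 850 FPKM in striatum SA and 606 to 5375 FPKM in striatum MA, highest in MA library 3 and next in library 4, and all 3 tested markers were higher in MA. All 5 microglial markers were also higher, with sums of 173 to 260 FPKM in SA and 144 to 430 FPKM in MA, as were 3 of 4 astrocyte markers, with 396 to 636 FPKM in SA and 376 to 753 FPKM in MA. Of the oligodendrocyte markers 3 of 5 were lower in striatum MA (median log2 difference -0.25). Striatal neuron markers were lower in 3 of 8 cases (median 0.02) and general neuron markers in 1 of 3 (median 0.03). Fibroblast markers summed to 40.0 FPKM in striatum MA library 3 and to at most 11.4 FPKM in the other striatum libraries, with Col1a1, Col1a2, Col3a1, Dcn and Lum as the list. Ribosomal protein genes of the follicle summed to 46691 (SA library 0) to 204525 FPKM in SA and 54739 to 108597 FPKM in MA, and 78 of 83 rows were lower in MA (median -0.49). Of the follicle epithelium markers 6 of 8 were higher in MA (median 0.37, summed 42764 to 80436 FPKM in SA and 45308 to 91818 FPKM in MA), and both erythrocyte markers tested there were lower (median -1.45, summed 1.33 to 426 FPKM in SA and 5.57 to 467 FPKM in MA). Striatal markers lay in the striatum and keratins in the follicle as labelled, with Ppp1r1b at 979 FPKM or more in every SA striatum library and at 12.4 FPKM or less in SA follicles, and Krt5 at 6313 FPKM or more in SA follicles and at 2.61 FPKM or less in the SA striatum.

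The part of these features in the values of the members was not tested, but the values without the libraries can be given. Leaving out striatum MA libraries 3 and 4, the ones with the most erythrocyte signal, left all 10 members lower, with a median of -0.27. Pnisr stayed without overlap, which was certain because it had none with all libraries in. Leaving out follicle SA library 0 left 8 of 10 lower, with a median of -0.15. Luc7l3 (-0.93 ± 0.16 SE) then joined Rsrp1 (-0.92 ± 0.15) and Ogt (-0.61 ± 0.11) among the genes without overlap, a pattern that 4.57% of 9059 genes showed without this library.

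Within a group, rats differ for reasons other than treatment, and deviations from the group means were not used to choose the genes. Pearson r was computed for each of the 45 pairs over the 12 libraries of a tissue, after the group means of log2(FPKM + 1) had been removed. The points share their library, so an r describes these libraries and carries no p. In the striatum the median r was 0.29, and 21 pairs were over 0.5 and 4 under -0.5, where 15.5% and 14.5% of all pairs of tested genes were. In the whisker follicle the median was 0.22, with 9 pairs over 0.5 and 6 under -0.5 (20.3% and 20.0% of all pairs there).

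The striatal deviations fell into blocks, a grouping made after the values were seen. Pnisr, Rsrp1, Luc7l3, Luc7l2, Clk1 and Clk4 went together, with r from 0.42 to 0.89 over their 15 pairs. Luc7l2 and Clk1 were the closest of them (r = 0.89, Spearman rho = 0.90), followed by Luc7l3 and Clk4 (r = 0.86, rho = 0.85). Rsrp1 had a lower rho than r with each of the others. With Luc7l3 it had a rho of 0.31 (r = 0.42), and with Clk1 a rho of 0.54 (r = 0.80). Ddx5, Srrm2 and Son, which encode the helicase and the speckle scaffold, formed another block with r from 0.81 to 0.92 (rho from 0.64 to 0.87). Between the blocks r ran from -0.62 to 0.25 and was below 0 in 15 of 18 pairs. Ogt went with the scaffold block (0.52 to 0.85) and less with the other 6 genes (-0.08 to 0.59). By rank, Ogt was less close to the scaffold block, with a rho of 0.46 for Ddx5, 0.38 for Son and 0.73 for Srrm2.

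Ddx5, Srrm2 and Son again went together in the whisker follicle (r from 0.65 to 0.88). The 6 genes of the other block did not hold as a block, with r from -0.66 to 0.65 and 7 of 15 pairs below 0. Pnisr went with Ddx5 (r = 0.89, rho = 0.88) and against Luc7l3 (r = -0.66, rho = -0.65) there, where in the striatum Pnisr and Luc7l3 had an r of 0.82. Ogt stood apart from the scaffold genes in this tissue (0.08 to 0.22). The pairs over 0.5 in both tissues were 5: Ddx5 with Son, Ddx5 with Srrm2, Srrm2 with Son, Luc7l3 with Clk4 and Rsrp1 with Clk4. The share of all gene pairs over 0.5 in both tissues was not computed. In the follicle alone, the 9 of 45 pairs over 0.5 were near the share of all pairs (20.3%), so the members as a set did not stand out there.

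**Figure D4:**
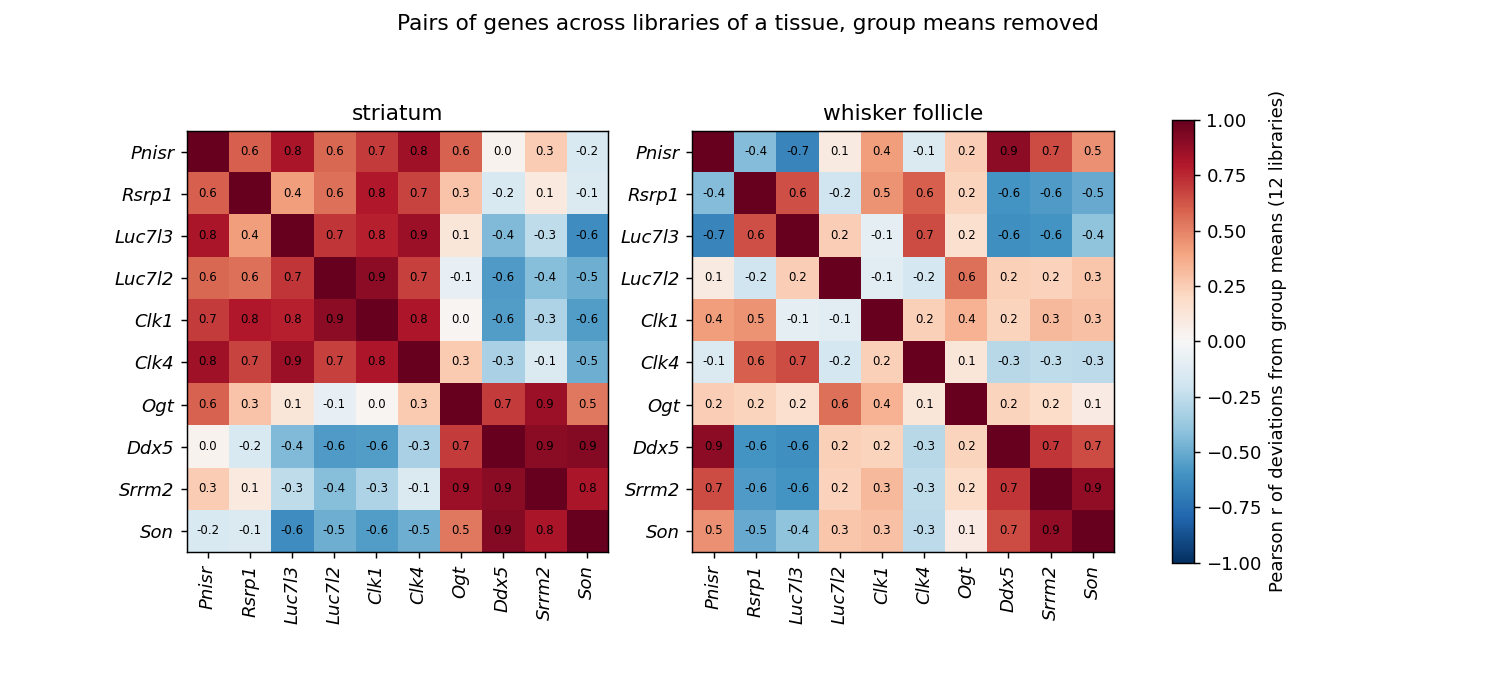
Pearson r between each pair of the 10 genes over the 12 libraries of the striatum (left) and of the whisker follicle (right), after group means were removed (red positive, blue negative, values rounded to 1 decimal). The block of 6 genes at the upper left is red throughout in the striatum and mixed in the whisker follicle, and the block of Ddx5, Srrm2 and Son is red in both.

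Some libraries were the lowest or highest of their group for several of the 10 genes. Genes that go together share such libraries, the same counts over all genes are not given here, and no r was recomputed without a library. In the striatum SA library 0 was the lowest of its group for 6 of the 10 genes and SA library 3 the highest for 5, and in MA library 1 was the highest for 5 and library 4 the lowest for 5. Among the follicles SA library 4 was the lowest for 4 genes, MA library 1 the highest for 5 and MA library 3 the lowest for 4. The SD within groups placed Clk1 above 84.2% of genes tested in the striatum, and Luc7l2 and Ogt above only 8.08% and 10.4% in the whisker follicle.

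Of 8202 genes outside the 10, those whose deviations were most like the median deviation of the members in both tissues were Macf1, Stx16, Phf20l1, Ankfy1, Acin1 and Nfrkb, ranked by the lower of the r values of the 2 tissues over 12 libraries each. The lower r was 0.76 for Macf1, 0.74 for Stx16 and 0.71 for Nfrkb. Of these genes Phf20l1 (-0.41 ± 0.13 SE) and Stx16 (-0.20 ± 0.08) had the largest MA minus SA log2 differences in the striatum, and Macf1 (-0.43 ± 0.16) in the whisker follicle. Acin1, an RS-rich speckle protein, differed by -0.01 ± 0.07 in the striatum and by -0.12 ± 0.11 in the follicle.

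Other genes of the same pathways were taken from lists of 71 genes in all. They cover speckle and RS-domain proteins, SR proteins, kinases of SR proteins, O-GlcNAc genes and noncoding RNAs. The noncoding RNAs, Gas5 among them, were listed as nuclear-retained, which was not measured here and need not hold for each. These lists were drawn up with earlier results of these data known, so their counts are a description and not independent support. None of them passed limma at an adjusted p under 0.05 in either tissue, with a smallest adjusted p of 0.577 for striatal and 0.465 for follicle libraries. In the striatum 50 of the 61 tested were lower in MA (median log2 difference -0.10), 16 of them at an unadjusted p under 0.05, and 0 were higher at that level. Of all genes 2.88% were lower and 5.38% higher at this level. The count of 16 became 10 without striatum MA library 3 and 7 without libraries 3 and 4, where 1.2% of 10564 genes were lower at this level. In the whisker follicle 29 of 58 were lower (median -0.00), 9 of them at an unadjusted p under 0.05 (5.18% of all genes), and 4 were higher at that level (5.25% of all genes).

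Of the speckle and RS-domain proteins, 28 of the 61 genes tested in the striatum, 26 were lower in MA (49.5% of all genes were) and 9 at an unadjusted p under 0.05 (2.88% of all genes). Snrnp70, a core protein of the U1 particle to which the LUC7-like proteins belong, had 57.5 ± 13.9 FPKM in SA and 40.3 ± 4.94 FPKM in MA (log2 difference -0.48 ± 0.14 SE). Ttc14 differed by -0.47 ± 0.12, the speckle protein Pnn by -0.37 ± 0.10 and the RS-domain protein Rbm25 by -0.25 ± 0.08. Among the paralogs of members Luc7l differed by -0.14 ± 0.09, Ddx17 by -0.19 ± 0.13 and Srrm1 by -0.21 ± 0.08.

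The 13 SR proteins, which bind exons and recruit the splicing machinery, were lower in 10 of 13 cases in the striatum, 4 at an unadjusted p under 0.05. Srsf5 differed by -0.32 ± 0.12 (106 ± 15.3 against 85.2 ± 13.2 FPKM), Tra2a by -0.23 ± 0.09 and Srsf11 by -0.21 ± 0.09. Of their kinases 8 of 10 were lower and 0 at an unadjusted p under 0.05, and the sisters of Clk1 and Clk4 differed by -0.16 ± 0.08 (Clk2) and -0.09 ± 0.08 (Clk3). The O-GlcNAc genes were lower in 4 of 7, with Gnpnat1 at -0.23 ± 0.10, and Mgea5, the counterpart of Ogt, differed by -0.08 ± 0.21. Of the noncoding RNAs Snhg11 was at 35.4 ± 11.0 FPKM in SA and 19.8 ± 3.47 FPKM in MA (log2 difference -0.77 ± 0.19 SE), Miat differed by -0.73 ± 0.18, and Gas5 by 0.07 ± 0.17.

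In the whisker follicle the same lists split. Of the speckle proteins 15 of 28 were lower, 3 at an unadjusted p under 0.05 (Arglu1 at -0.66 ± 0.18, Luc7l at -0.43 ± 0.18 and Zranb2 at -0.32 ± 0.09), and 2 were higher at that level (Cir1 at 0.46 ± 0.17 and Scaf1 at 0.33 ± 0.12). Of the SR proteins 6 of 12 were lower. Tra2b stood at 38.2 ± 14.6 FPKM in SA and 20.2 ± 3.50 FPKM in MA (log2 difference -0.81 ± 0.24 SE), and Srsf5 went the other way from its striatal value, at 0.48 ± 0.15.

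Among the follicle kinases 3 of 10 were lower, with Cdk11b at -0.48 ± 0.21, Clk2 at 0.00 ± 0.11 and Clk3 at 0.12 ± 0.23. Of the O-GlcNAc genes 4 of 6 were lower. Every MA follicle library of Ogt lay below the SA libraries, whereas Mgea5 differed in the other direction, with 4.23 ± 4.23 FPKM in SA and 7.84 ± 3.39 FPKM in MA (log2 difference 0.94 ± 0.38 SE, unadjusted p = 0.0269, adjusted p = 0.465 by limma). Gnpnat1, which acts in making the sugar donor of OGT, differed by -0.37 ± 0.12, and the noncoding RNA Gas5 by -0.65 ± 0.27.

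**Figure D5:**
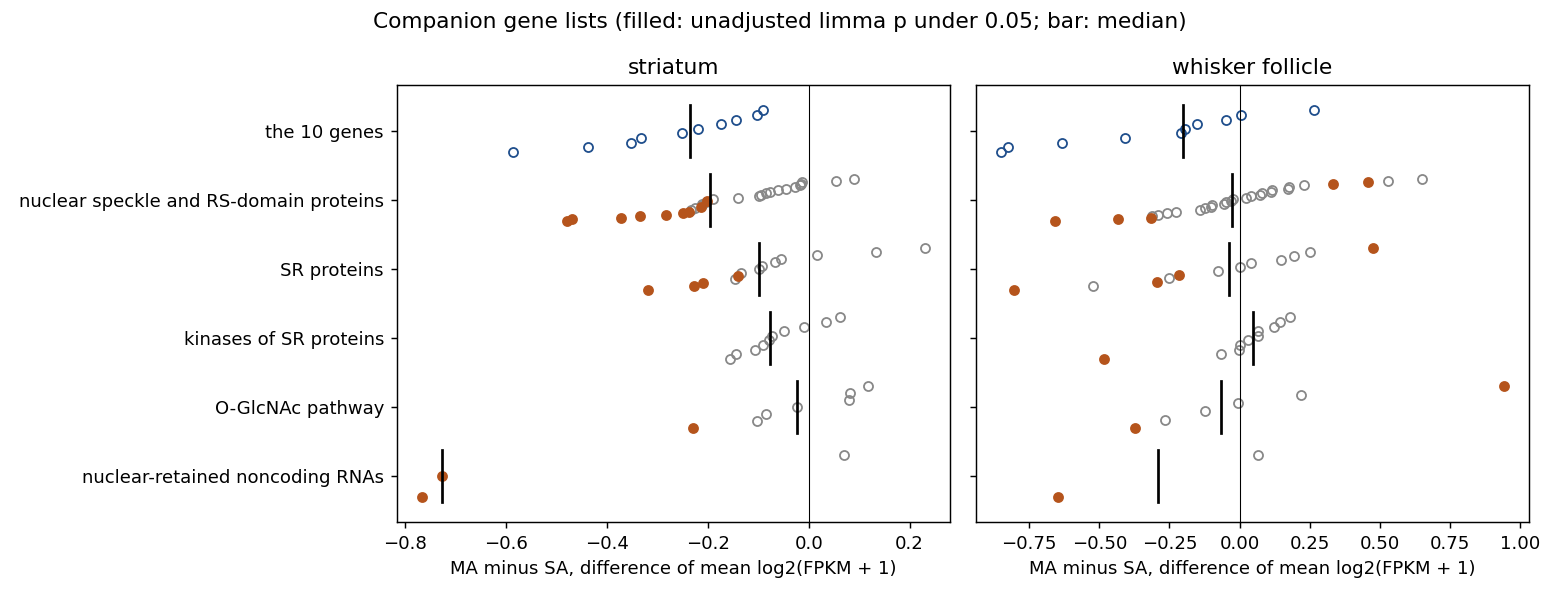
MA minus SA difference of mean log2(FPKM + 1) for each gene of the companion lists and for the 10 genes, with the striatum on the left and the whisker follicle on the right. Filled points have an unadjusted limma p under 0.05, black bars mark the median of a list, and the 10 genes are drawn open because they were not tested. The lists were chosen with earlier results of these data known. In the striatum most points of the speckle and SR protein lists lie below 0, and in the whisker follicle they lie on both sides.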

How the data were processed

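RNA-seq of the striatum and whisker follicles of 12 rats gave 24 libraries. The authors deposited FPKM values in 1 table of 17711 rows. The paper names Cutadapt, TopHat2, Cufflinks and Cuffdiff with the rn6 genome, whereas STAR 2.6.0c, Cufflinks 2.2.1 and bcl2fastq stand in the submitters' processing notes, with rn6 as well. The paper gives an approximate read total per sample, but FPKM values carry no counts, so the reads behind each value cannot be given and the spread over the 6 rats of a group is the error given. The library kit does not mark strand, and how reads shared by paralogs (Luc7l2, Luc7l3 and Luc7l, Clk1 and Clk4, Ddx5 and Ddx17) were assigned is not given in the sources used here. FPKM sums per library ran from 348717 to 418892 in the striatum and from 774567 to 1524570 in the whisker follicle.

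Columns were assigned to groups by name, as unnumbered replicates, and libraries are cited by their column index of 0 to 5. The values were compared as log2(FPKM + 1), which understates the change of low genes, over the genes that reached a mean of 1 FPKM in the libraries compared. Tests used limma 3.58.1 under R 4.3.3 (moderated, with a trend, 2-sided, Benjamini-Hochberg over all genes tested), with a call at an adjusted p under 0.05 where the fold reached 1.5, after being tested on simulated data. Tables and plots used Python 3.11.15.

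The members and the lists were chosen with earlier results of these data known. Named genes were the 10 members, up to 4 genes per list and tissue with the smallest p, paralogs and partners of members, and the 6 genes most like the members. Alternatives were quantile normalization, a common median, library weights, a pseudocount of 0.1, a minimum mean of 5 FPKM or none, the MA libraries for the tissue contrast, and leaving out each library. Leaving out striatum MA libraries 3 and 4 was added after seeing the data. Features of the encoded proteins and mitochondrially encoded mRNAs were not analysed here, nor were Nktr, Malat1, Neat1, Meg3, Rian, Mirg and Kcnq1ot1.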

Additional observations from a re-analysis of the deposited data

Results flagged for a closer look

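Of 40 groups of 6 libraries (10 genes in 2 tissues and 2 treatments), 1 held a library far from the others by Dixon's ratio, where chance gives about 1 in 20. Luc7l3 stood at 8.25 FPKM in whisker follicle SA library 0, with the other SA libraries at 11.8 to 13.5 FPKM, and the gap to its nearest neighbour was 0.723 of the range of the group on the log2(FPKM + 1) scale, above the 95% limit for groups of this size. The same library held the lowest ribosomal protein sum of the SA follicles (46691 FPKM) and the lowest erythrocyte sum (1.33 FPKM). Their part in the value of Luc7l3 was not tested.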

How the results depend on the processing

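No paired analysis was possible because the index of the columns is not tied to the rat numbers of the labels, so neither a replicate block nor a pairing of the tissues of a rat could be fitted. In the striatum all 10 members stayed lower in MA in all 18 settings, though Rsrp1 came to -0.00 without SA library 3 and Son to -0.02 without MA library 4. For follicles, Pnisr changed sign in 8 of 17 settings (-0.09 to 0.15) and Clk4 in 1 of 17 (to 0.00), and the count of lower members was 8 or 9. Striatal members without overlap numbered 1, where 0.16% of all tested genes had every MA library below every SA library. They numbered 2 without MA library 1 (range 1 to 2 over the libraries left out), and the share of all genes in that setting is not given here. MA library 1 held the only MA value of Ogt within the SA range. Companion genes at an unadjusted p under 0.05 and lower in MA numbered 16 in the striatum, 10 (without MA library 3) to 18 with a library left out, and 7 without MA libraries 3 and 4, where fewer libraries entered the fit. Follicle companions numbered 9, and 5 (without SA library 4 or without MA library 2) to 12 with a library left out. Between tissues 5 to 7 members were called higher in the striatum (5 with a common median, 7 with quantile normalization). The share of all genes called so was 42.5% with the main settings, and it is not given here for the alternatives. Of the members that were not called, Clk1 changed sign with quantile normalization (0.205), in the MA libraries (0.0598) and with a library left out (-0.243 to 0.0334, the latter without striatum SA library 0). Luc7l2 did so with a common median (-0.17), and Clk4 with a common median (-0.11) and in the MA libraries (-2.06e-05). The cause was not tested. With 6 libraries a group and no read counts, differences near their standard error, such as those of Son and Srrm2, could not be resolved.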
